A study of Mus musculus with 32 samples.

Results

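The 10 genes described here encode the myosin chains and the myosin binding proteins of the sarcomere, the contractile unit of the muscle fibre. They were named one by one: the heavy chains Myh1, Myh2, Myh3, Myh4, Myh7 and Myh8, the light chains Myl1 and Mylpf, and the binding proteins Mybpc1 and Mybpc2. Each had 1 row in the deposited tables, among 55487 genes once repeated identifiers were dropped. The genes were chosen with results of these data known, so that their own differences between groups are given as descriptions. Where the text says that one of them was called, this is its place in the fit across all genes and no evidence beyond the choice.

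RNA was sequenced from satellite cells, which are stem cells that rebuild muscle fibres after damage, and from FAPs (fibro-adipogenic progenitors), connective tissue cells that lie between the fibres. Both were sorted from the supraspinatus, a rotator cuff muscle, of wild-type (WT) male C57BL/6J mice aged 12 weeks. The study asked how brown adipose tissue (BAT) placed on injured muscle alters these cells. Every muscle had received cardiotoxin, a venom peptide that lyses fibres, so that no uninjured muscle serves as a baseline. Control muscle had the injury alone, and the other muscle of the same mouse received interscapular BAT of 3-week-old donors. Cells were taken on day 3 or day 7, which gives 8 groups of 4 libraries from 8 mice, 4 mice on each day. The mice of day 3 and day 7 differ, as do their tables, so that the day cannot be told apart from a batch that goes with it. No muscle with a sham operation or another graft was analysed here.

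Myosin heavy chains carry the motor that pulls on actin, and each heavy chain binds an essential and a regulatory light chain. Myosin binding protein C holds the thick filament in order and tunes how readily its heads reach actin. Forming and regenerating fibres first use the embryonic chain (Myh3) and the neonatal chain (Myh8), and later the adult fast chains of type IIa (Myh2), IIx (Myh1) and IIb (Myh4) fibres or the slow chain of type I fibres (Myh7). Myl1 encodes fast essential light chains, Mylpf the fast regulatory light chain, Mybpc1 the slow and Mybpc2 the fast skeletal isoform of myosin binding protein C. Quiescent satellite cells do not build sarcomeres, whereas their progeny do so as they differentiate and fuse.

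5 of the heavy chain genes stand in a row on chromosome 11 of mm10, all on the plus strand (1-based bounds from the GENCODE M21 annotation). Their order is Myh3 (67078300 to 67102291), Myh2 (67171027 to 67197517), Myh1 (67200052 to 67224575), Myh4 (67238029 to 67260446) and Myh8 (67277124 to 67308634). Myh7 lies on chromosome 14 (54970684 to 54994626, minus strand) and Myl1 on chromosome 1 (66924295 to 66945404, minus strand). Mylpf and Mybpc2 are both on chromosome 7 (127208890 to 127214298 on the plus strand, and 44501699 to 44524656 on the minus strand), and Mybpc1 is on chromosome 10 (88518279 to 88605152, minus strand).

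The promoters of Myh3, Myh4 and Myh8 are shown because these neighbouring genes moved in opposite directions between the days. The 250 bases before the RefSeq start were read 5′ to 3′ from GRCm38.p6 (chr11:67078050-67078299, chr11:67237562-67237811 and chr11:67276874-67277123, plus strand). Capitals mark matches, on either strand, to the E box CANNTG, the letters bound by myogenic bHLH factors, to TATAAA, and to the element of the MEF2 family of muscle transcription factors.
Myh3: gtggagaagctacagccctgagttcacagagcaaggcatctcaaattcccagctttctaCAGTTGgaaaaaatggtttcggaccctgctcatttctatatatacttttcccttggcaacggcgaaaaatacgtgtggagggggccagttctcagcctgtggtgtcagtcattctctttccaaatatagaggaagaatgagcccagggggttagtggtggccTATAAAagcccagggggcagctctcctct
Myh4: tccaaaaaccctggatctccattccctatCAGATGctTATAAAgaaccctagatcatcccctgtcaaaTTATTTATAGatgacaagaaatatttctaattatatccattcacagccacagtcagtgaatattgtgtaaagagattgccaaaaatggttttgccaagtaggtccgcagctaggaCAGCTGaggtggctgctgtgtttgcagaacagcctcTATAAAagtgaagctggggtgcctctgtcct
Myh8: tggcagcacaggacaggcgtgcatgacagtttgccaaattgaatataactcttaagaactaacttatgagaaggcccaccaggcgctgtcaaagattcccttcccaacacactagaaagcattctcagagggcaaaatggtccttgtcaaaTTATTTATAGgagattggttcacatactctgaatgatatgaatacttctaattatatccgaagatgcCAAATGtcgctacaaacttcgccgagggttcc
Myh3 and Myh4 hold TATAAA close to the start, at 29 to 24 and at 31 to 26 bases before it. A MEF2 element stands at 182 to 173 bases before the start of Myh4 and at 99 to 90 before that of Myh8, and none was found in the Myh3 window. The same element stands in the Myh1 window, at 211 to 202 bases before its start, and in each of the 3 windows it overlaps a reverse-strand TATAAA match. The Myh4 window also holds 2 E boxes (221 to 216 and 67 to 62 bases before the start), and the others hold 1 each (191 to 186 in Myh3, 32 to 27 in Myh8). Of 32851 promoter windows of this length in the RefSeq table, 66.2% hold an E box, 12.4% hold TATAAA and 2.92% hold the MEF2 element. These matches are letters in a window, and no binding was measured here.

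Markers of the sorted cells fitted the labels except for Sca1. Levels are in CPM, which set each gene's count against its own library total. Pax7, which encodes a regulator that defines satellite cells, had group means of 29.2 to 122 CPM there and at most 0.3 CPM in FAPs, and Pdgfra, the FAP receptor, had 1.83 to 6.79 and 289.7 to 327 CPM. Ly6a, which encodes Sca1, was at 5.95 to 14.6 CPM in satellite cells against 593 to 826 CPM in FAPs, although the labels give both gates as Sca1+. Library totals were 19.8 to 46.4 M counts, and 3 counts correspond to 0.0647 to 0.152 CPM, the most that a count of 0 allows (counting error only). On day 3 the summed macrophage markers reached 1479.6 CPM in control satellite cell replicate 3, against a group minimum of 7.51 CPM. They reached 1673 CPM in BAT satellite cell replicate 4 and 4149 CPM in BAT FAP replicate 1, against group minima of 9.52 and 17.2 CPM. These 2 BAT libraries come from the same muscle. On day 3 a replicate number stands for different mice in the 2 cell types. All 4 libraries of the day 7 mouse of replicate 3 carried the female transcript Xist and no Y-linked Ddx3y, against the label. In bulk RNA, fewer cells that express a gene and less of its RNA per cell cannot be told apart, which holds for every level below.

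Some of these values depend on how reads of similar genes were assigned, which is not given in the sources used here. Myl1 shares its reads with a processed pseudogene, Mylf-ps on chromosome 12 (101221997 to 101222417, minus strand). The deposited Myl1 value was a whole number in 7 of 32 libraries, whereas the sum of Myl1 and Mylf-ps was whole in 32 of 32 (within 0.015). The pseudogene held 26.8 to 29.2% of that sum in the 16 satellite cell libraries, and the Myl1 values below do not hold those reads. Among the heavy chains, 25.4% of the 50-base windows of Myh1 transcripts and 26.9% of those of Myh2 also occur in another sarcomeric heavy chain, against 18.9% for Myh4, 16.7% for Myh8 and 4.76% for Myh3. Of Myh7 windows, 21.2% are shared with its cardiac neighbour Myh6. Myh2 is the least certain: 9430073C21Rik, a transcript on the opposite strand, had 174% of the Myh2 level in control satellite cells on day 7. Mylpf and Mybpc2 were whole in every library.

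Myh3, the embryonic chain, was the leading heavy chain of day 3. Control satellite cells had 22.4, 43.6, 8.52 and 37.4 CPM in replicates 1 to 4 on day 3, and 4.02, 10.5, 14.9 and 12.6 CPM on day 7. With BAT the values were 25.1, 30.7, 5.76 and 41.7 CPM on day 3 and 4.1, 4.1, 12.4 and 4.92 CPM on day 7. The groups of the 2 days overlapped in both treatments, because the day 3 mouse of replicate 3 was low in both muscles. Its summed macrophage markers were at 1479.6 CPM in control and 9.52 CPM with BAT, and their part in the Myh3 levels was not tested. These 2 libraries carry no mouse code, and were taken to be from the same mouse.

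Myh8, the neonatal chain, was scarce on both days. Its control values were 0.379, 0.843, 0 and 0.0914 CPM on day 3 and 3.01, 3.3, 4.14 and 4.23 CPM on day 7, with no overlap. With BAT it had 0.613, 0.509, 0 and 0.396 CPM on day 3 and 0.83, 4.23, 2.27 and 2.93 CPM on day 7. Neonatal and embryonic chains thus had opposite orders of the days.

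Among the adult fast chains, Myh4 was near the detection limit on day 3 and was the most abundant heavy chain of control satellite cells on day 7. Its control values were 0.114, 0.582, 0.158 and 0.32 CPM on day 3 and 19.1, 44.8, 18.9 and 73.9 CPM on day 7. With BAT it had 0.613, 0.375, 0.202 and 0.264 CPM on day 3 and 7.76, 17.9, 6.47 and 26.9 CPM on day 7. The lowest day 7 library lay above the highest day 3 library in both treatments, and the 4 mice of day 7 took the same order in both muscles (replicate 4, then 2, 1 and 3).

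Myh1, the type IIx chain, was present on both days. Control satellite cells had 3.07, 6.6, 2.65 and 5.48 CPM on day 3 and 12.4, 21.1, 16.2 and 37.4 CPM on day 7, and the groups did not overlap. With BAT, Myh1 had 4.37, 6.13, 2.12 and 4.6 CPM on day 3 and 6.78, 20.3, 5.33 and 17 CPM on day 7, where the lowest day 7 library lay within the day 3 range.

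Myh2 and Myh7 stayed low. Myh2, the type IIa chain, had 3.11 counts over the 4 control libraries of day 3 and was at 0.418, 1.13, 0.612 and 0.987 CPM on day 7. With BAT it had 1.03 counts over the group on day 3 and 1.15, 1.07, 0.163 and 0.353 CPM on day 7. Myh7, the slow chain, had group means of 0.142 CPM (control) and 0.137 CPM (BAT) on day 3, and 0.334 ± 0.0818 CPM (SD, n = 4) and 0.183 ± 0.233 CPM on day 7. These means rest on 21, 17.9, 35.9 and 17 counts, and no order among the 4 groups could be read from them.

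**Figure D1:**
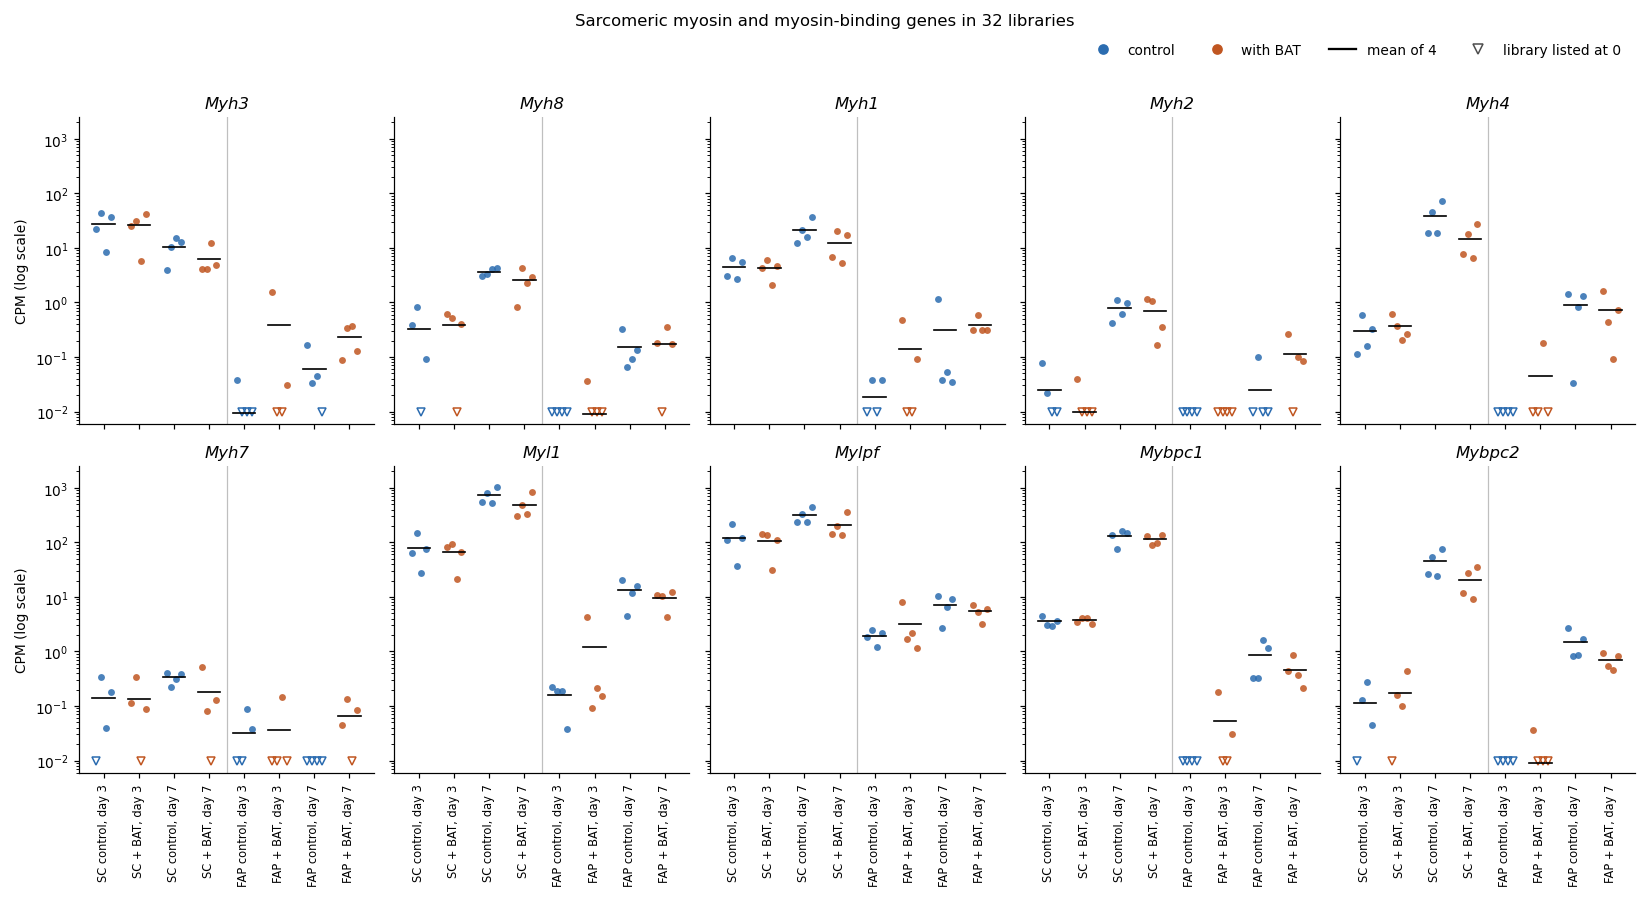
Levels of the 10 genes by library. The log-scaled y axis gives CPM of the column total, each point is a library, the horizontal bars are group means, and open triangles at the bottom stand for 0; satellite cell libraries of day 7 hold Myl1 at 309 to 1042 CPM, and FAP libraries lie below the satellite cell libraries of their day for the abundant genes.

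The light chains were the most abundant of the 10 genes. Myl1 had 64.8, 149, 27.2 and 74.9 CPM in control satellite cells on day 3 and 559, 811, 526 and 1042 CPM on day 7. With BAT it had 82.6, 92.2, 21.7 and 65.4 CPM on day 3 and 309, 487, 325 and 848 CPM on day 7, so that the days did not overlap in either treatment. Mylpf, its regulatory partner, had 111, 216, 37.7 and 122 CPM in control cells on day 3 and 241, 328, 241 and 445 CPM on day 7. With BAT, Mylpf had 145, 134, 31.7 and 113 CPM on day 3 and 141, 204, 137 and 367 CPM on day 7, where the ranges met.

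The 2 light chains kept a narrow ratio within each day. Per kilobase of merged exons, control satellite cells held 0.334 ± 0.0322 Myl1 for each Mylpf on day 3 (SD, n = 4) and 1.19 ± 0.0593 on day 7. With BAT the ratio was 0.323 ± 0.0339 and 1.19 ± 0.0447. Adding the pseudogene's counts to Myl1 gave 0.466 ± 0.0449 and 1.68 ± 0.0869 in control cells. The ratio thus differed between days by far more than its spread, while its means in BAT and control muscle lay within that spread.

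The slow binding protein gene Mybpc1 was uniform on day 3, unlike the light chains and Myh3. Its control values were 4.54, 3.04, 2.99 and 3.62 CPM on day 3 and 137, 76.8, 161 and 148 CPM on day 7. With BAT, Mybpc1 had 3.45, 4.12, 4.11 and 3.13 CPM on day 3 and 133, 88.5, 98.4 and 138 CPM on day 7. The highest of the 4 control libraries of day 3 exceeded the lowest 1.52-fold for Mybpc1, against 5.12-fold for Myh3, 5.48-fold for Myl1 and 5.73-fold for Mylpf.

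Mybpc2, the fast isoform, was almost absent on day 3. Control satellite cells had 0, 0.129, 0.277 and 0.0457 CPM on day 3, which is 14 counts in all, and 26, 54.1, 24.5 and 74.5 CPM on day 7. With BAT, it had 0, 0.161, 0.101 and 0.44 CPM on day 3 and 12, 27.3, 9.35 and 34.7 CPM on day 7. Its day 7 mice took the order seen for Myh4 in both muscles, whereas Mybpc1 was lowest in replicate 2 in both. Per kilobase, Mybpc1 exceeded Mybpc2 by 3.03 ± 1.99 times in control cells of day 7 and by 5.75 ± 3.32 times with BAT (SD, n = 4).

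On the per-kilobase scale, the order of mean levels in control satellite cells on day 3 was Mylpf (114 ± 69 CPM per kb, SD, n = 4), Myl1 (38.1 ± 24.6), Myh3 (4.62 ± 2.6), Mybpc1 (0.784 ± 0.159) and Myh1 (0.701 ± 0.299), with the others below 0.05 CPM per kb. The means of Mybpc1 and Myh1 lay within each other's spread. On day 7 the order was Myl1 (354 ± 116), Mylpf (295 ± 91.2), Mybpc1 (28.9 ± 8.22), Mybpc2 (12.4 ± 6.66), Myh4 (6.51 ± 4.34), Myh1 (3.43 ± 1.73) and Myh3 (1.73 ± 0.77). Within each of the 4 libraries, Mybpc2 exceeded Myh4 (Myh4 to Mybpc2 ratio 0.441 to 0.595). Myh4 also exceeded Myh1 (1.24 to 2.24) and Myh1 exceeded Myh3 (1.04 to 2.94) in each of them. Myh8 (0.312 ± 0.0517), Myh2 (0.11 ± 0.0462) and Myh7 (0.0387) closed the day 7 order.

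Heavy chain composition went from mostly developmental to mostly adult fast. Of the summed per-kilobase level of the 6 heavy chains, the developmental pair (Myh3 and Myh8) made up 84.1 ± 5.61% in control satellite cells on day 3 (SD, n = 4) and 18.7 ± 9.39% on day 7. The adult fast chains made up 15.6 ± 5.59% and 80.9 ± 9.42%. Myh4 alone went from 0.939% to 51.2 ± 10.3%, and Myh1 from 14.6% to 28.8 ± 2.56%. The slow chain stayed at 0.255% and 0.404%, which rests on 21 and 35.9 counts. The ranges of the developmental share did not overlap between days (75.8 to 87.9% and 11.7 to 32.5%). Replicate 3 had the lowest share of day 3 in both treatments (75.8% in control, 72.1% with BAT), and the macrophage-rich BAT replicate 4 had the highest (89.9%).

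In BAT muscle the developmental share was 82.1 ± 7.39% on day 3 and 25.7 ± 19.1% on day 7. Mouse by mouse on day 7, it was 14.9% in control and 22.5% with BAT in replicate 1, 15.5% and 14% in replicate 2, 32.5% and 53.6% in replicate 3, and 11.7% and 12.8% in replicate 4. The difference was 7.08 ± 10.1 percentage points (SD, n = 4), higher with BAT in 3 of 4 mice, which is within the spread between mice. On day 3 the difference was -2 ± 3.38 points, higher in 1 of 4 mice. Myh4's own share on day 7 was 39.7 ± 11.6% with BAT. Heavy chain RNA as a whole, summed per kilobase, was 12.1 ± 6.42 CPM per kb in control cells and 5.79 ± 2.4 with BAT on day 7, against 5.42 ± 2.95 and 5.05 ± 2.72 on day 3.

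**Figure D2:**
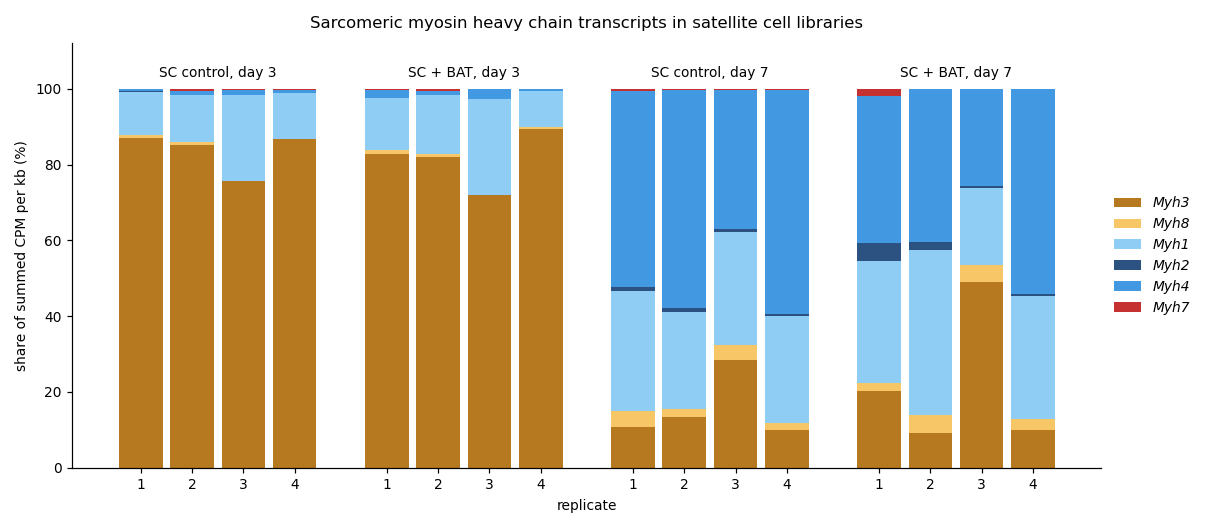
Composition of heavy chain RNA in satellite cells. Each bar is a library and stacks to 100% of the summed CPM per kb of Myh1, Myh2, Myh3, Myh4, Myh7 and Myh8 (y axis, percent); Myh3 takes most of each day 3 bar, and Myh4 with Myh1 most of every day 7 bar except that of BAT replicate 3, where the developmental chains hold 53.6%.

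Across all genes, 59.4% of 16597 tested genes were called between day 7 and day 3 in control satellite cells (edgeR adjusted p under 0.05), 29.7% higher and 29.8% lower on day 7. Of the 9 sarcomeric genes tested, 7 were called higher and 1 lower, and nothing is read from that count because the genes were chosen from such contrasts. The log2 change was 8.18 ± 0.64 (SE) for Mybpc2, 6.54 ± 0.64 for Myh4, 4.83 ± 0.25 for Mybpc1 and 4.40 ± 0.74 for Myh2. It was 2.94 ± 0.74 for Myh8, 2.83 ± 0.47 for Myl1, 1.91 ± 0.40 for Myh1 and -1.79 ± 0.51 for Myh3. Mylpf, at 0.98 ± 0.44, was not called. The changes of Mybpc2 and Myh2 are measured against almost no reads on day 3. Without control day 3 replicate 3, the macrophage-rich library, the changes were 6.31 for Myh4, 2.52 for Myl1 and -2.10 for Myh3. These changes are after TMM scaling, while on plain library totals the median of all genes sits 0.357 higher on the log2 scale.

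With BAT, 52.9% of 16313 genes were called between the days, 28.5% higher and 24.4% lower, and of 8 sarcomeric genes tested 6 were higher and 1 lower. The log2 changes were 6.64 ± 0.70 for Mybpc2, 5.02 ± 0.57 for Myh4, 4.68 ± 0.20 for Mybpc1, 2.43 ± 0.72 for Myh8, 2.63 ± 0.46 for Myl1, 1.25 ± 0.46 for Myh1, 0.72 ± 0.45 for Mylpf and -2.27 ± 0.56 for Myh3. The call of Myh1 was lost without any of 5 single libraries, with changes of 0.87 to 1.22 (BAT day 3 replicates 1, 3 and 4, and BAT day 7 replicates 2 and 4). In control muscle, Mylpf became called without day 3 replicate 2 (log2 change 1.46).

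Transcripts of other cell types also differed between the days. From day 3 to day 7, the mean summed level in control satellite cells went from 659.9 to 6530.1 CPM for 12 FAP markers, from 289.9 to 2666 CPM for 8 pericyte and smooth muscle markers, from 90 to 975 CPM for 7 Schwann markers and from 63.5 to 478 CPM for 8 tenocyte markers. By gene, 8 of 8 pericyte and 7 of 7 Schwann markers and 5 of 12 FAP markers were called higher. Of 8 macrophage markers tested, 7 were called lower. Their summed level was 40.2, 37.5, 1479.6 and 7.51 CPM in replicates 1 to 4 on day 3. On day 7 it was 5.06, 12.7, 71.1 and 4.67 CPM, so that the ranges overlapped. Of the 12 FAP markers, 9 had a fitted change above 0 and 3 below 0 (median log2 change 1.79). Pdgfra, a defining FAP marker, had a mean of 3.92 CPM on day 3 (0.228 to 13.9) and 2.96 CPM on day 7 (1.02 to 7.01). The part of these transcripts in the day difference was not tested.

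**Figure D3:**
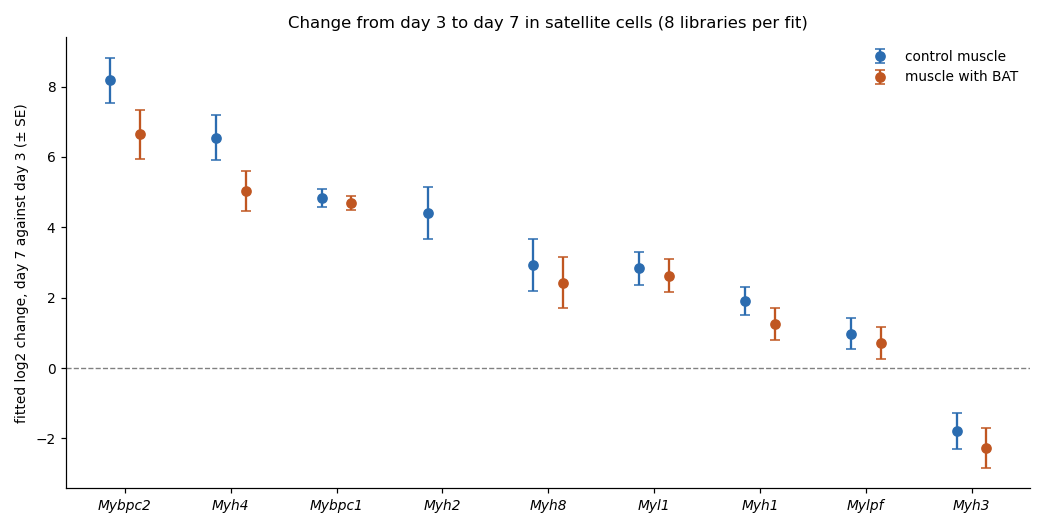
Log2 change from day 3 to day 7 in satellite cells for each sarcomeric gene tested (y axis, log2 after TMM scaling; bars are SE, n = 4 libraries in each group). Points show control and BAT muscle; Myh3 alone lies below 0 in both, and Mybpc2 and Myh4 are highest in control muscle; Myh2 is shown for control alone, where its day 3 value rests on 3.11 counts.

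Other genes of the muscle cell were read from lists (chosen with earlier results known). In control satellite cells, of 22 thin filament and Z disc genes 11 rose and 3 fell from day 3 to day 7 (edgeR, adjusted over all genes), with a median log2 change of 1.11 against 0.03 for all genes. Those with the largest changes were the Z disc genes Myoz1 (7.76 ± 0.36 SE, adjusted p = 9.66e-07), Myot (7.21 ± 0.60, adjusted p = 1.17e-05), Tcap (5.51 ± 0.50) and Ldb3 (2.78 ± 0.51). The 3 that fell were Tnnc1 (-2.07 ± 0.68, adjusted p = 0.0229), Tnnt1 (-0.75 ± 0.30, adjusted p = 0.049) and Tpm3 (-0.72 ± 0.11, adjusted p = 0.000414), named after their values were seen. Slow or cardiac isoform genes of this list did not share 1 direction. Mean Actc1 went from 52.4 to 234 CPM, and mean Tnni1 from 62.5 to 37.5 CPM.

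Of 14 genes of fibre metabolism and calcium handling, 11 rose and 1 fell, with a median of 2.47. Pvalb, the calcium buffer of fast fibres, went from 0.292 ± 0.0516 to 132 ± 52.2 CPM (SD, n = 4; log2 change 8.41 ± 0.38 SE, adjusted p = 8.24e-07). The mitochondrial creatine kinase gene Ckmt2 changed by 7.72 ± 0.67, the muscle creatine kinase gene Ckm by 6.22 ± 0.63 and the myoglobin gene Mb by 4.65 ± 0.43. Eno3, a muscle glycolytic enzyme, fell (-2.71 ± 0.17, adjusted p = 3.67e-06), and was named after its value was seen.

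The rest of the thick filament had a median change near that of all genes. Of 22 other thick filament genes, 16 were tested, 4 rose and 1 fell, and the median was -0.05. Myom1, which ties thick filaments together at the M line, went from 1.54 ± 0.605 to 11.7 ± 2.77 CPM (SD, n = 4; log2 change 2.53 ± 0.34 SE, adjusted p = 0.000166). The kinase gene Mylk4 changed by 2.37 ± 0.40 (adjusted p = 0.000633) and Trim54 by 1.49 ± 0.51 (adjusted p = 0.0283). Smyd1, a factor in myosin folding and assembly, fell (-1.71 ± 0.32, adjusted p = 0.00107).

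Myosins of smooth muscle and non-muscle cells were read beside the sarcomeric ones. Of 8 tested, 4 rose: Myh11, the smooth muscle heavy chain (3.46 ± 0.76), the light chain kinase gene Mylk (3.15 ± 0.53), the smooth muscle light chain gene Myl9 (2.27 ± 0.44) and Myh10 (0.62 ± 0.15). They moved with the pericyte and smooth muscle markers above. Of 13 myogenic regulators and fusion genes, 5 rose and 3 fell, among them Mef2c (2.81 ± 0.28), Myf5 (1.46 ± 0.24), Myf6 (1.44 ± 0.33) and the cell cycle inhibitor gene Cdkn1c (1.31 ± 0.31). Those that fell were Myod1 (-1.07 ± 0.25, adjusted p = 0.00389), the fusion gene Mymk (-1.02 ± 0.28, adjusted p = 0.00937) and Mef2a (-0.79 ± 0.24, adjusted p = 0.0153), named after their values were seen.

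BAT was compared with control muscle of the same mouse, and the control libraries are those of the day and cell type comparisons. On day 7, Myh4 in BAT satellite cells stood at 34.1 to 40.7% of the control level of the same mouse, and Mybpc2 at 38.1 to 50.4%, both lower in 4 of 4 mice. Of 16868 genes tested, 0.0178% were called, which is 3 genes, all lower with BAT: Myh4 (log2 change -1.39 ± 0.12 SE), Mybpc2 (-1.13 ± 0.12) and Ckm. At an unadjusted p under 0.05 there were 1261 genes. Because Myh4 and Mybpc2 are in the set for this contrast, their calls are a description. Without replicate 4 none of the sarcomeric genes was called, without replicate 1 or replicate 3 only Myh4 was, and the fit without the mouse as a block called neither. Over these fits the log2 change stayed between -1.42 and -1.35 for Myh4 and between -1.18 and -1.06 for Mybpc2.

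Myh1, Myl1 and Mylpf were lower with BAT in 4 of 4 mice as well, and were not called. Their levels were 32.9 to 96.5% of control for Myh1 (log2 change -0.88 ± 0.22), 55.4 to 81.4% for Myl1 (-0.62 ± 0.11) and 56.9 to 82.4% for Mylpf (-0.62 ± 0.11). With the pseudogene's counts added, Myl1 differed by -0.66 ± 0.24 (log2, SD over 4 mice). DESeq2 with the same design called these 3 genes besides Myh4 and Mybpc2. It also called more genes than edgeR over all genes (counts in the last section), and nothing is read from these calls.

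The other sarcomeric genes tested were lower in 3 of 4 mice each. Myh3 stood at 39.1 to 102% of control (log2 change -0.72 ± 0.25), Myh8 at 27.6 to 128% (-0.65 ± 0.34), Mybpc1 at 61.3 to 115% (-0.14 ± 0.14) and Myh2 at 26.6 to 276% (-0.35 ± 0.57). Of the 9 tested, 9 had a fitted change below 0, with a median of -0.65 against 0.00 for all genes. Summed over the 10 genes, the level was lower with BAT in 4 of 4 mice (log2 -0.62 ± 0.18, SD). This sum is mostly the light chains: control means were 734 CPM for Myl1 and 314 CPM for Mylpf, with Mybpc1 next at 131 CPM.

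Changes of pairs of genes were also compared within each mouse. The log2 change of Myh4 lay below that of Mybpc1 by a difference of -1.25 ± 0.29 (SD, n = 4), in 4 of 4 mice, and that of Mybpc2 by -0.99 ± 0.22, also in 4 of 4. For Myh1 (-0.75 ± 0.34) and Mylpf (-0.48 ± 0.39) the difference from Mybpc1 was below 0 in 4 of 4 mice, and for Myl1 (-0.48 ± 0.46, highest 0.01) and Myh2 (-0.34 ± 1.32) in 3 of 4. Myh4 lay below Myl1 in 4 of 4 mice (-0.76 ± 0.32) and below its neighbour Myh1 in 3 of 4 (-0.49 ± 0.56). Myl1 and Mylpf differed by -0.01 ± 0.09. These differences describe genes chosen with the contrast known.

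**Figure D4:**
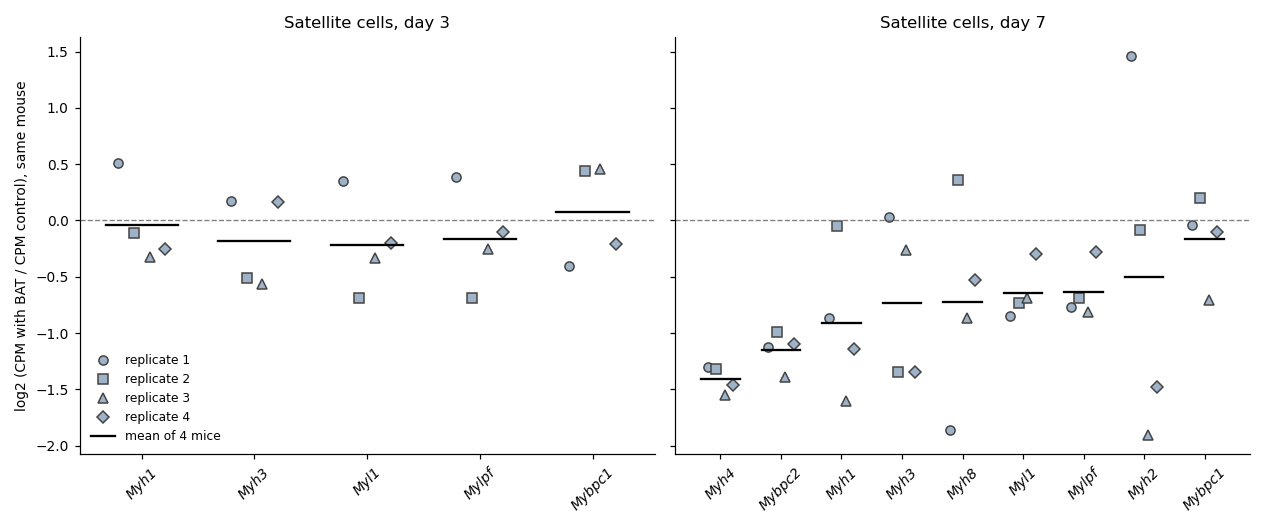
Within-mouse log2 ratio of BAT to control level in satellite cells, day 3 (left; Myh1, Myh3, Myl1, Mylpf and Mybpc1) and day 7 (right). Each point is a mouse, named by replicate; on day 7 all 4 points of Myh1, Myh4, Myl1, Mylpf and Mybpc2 lie below 0, whereas on day 3 the points lie on both sides of 0.

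Markers of other cell types were set beside the day 7 difference. Summed satellite cell markers were lower with BAT in 3 of 4 mice (log2 -0.17 ± 0.22, SD) and FAP markers in 3 of 4 (-0.47 ± 0.55). Tenocyte markers were lower in 4 of 4 (-0.54 ± 0.40), brown adipocyte markers higher in 4 of 4 (0.35 ± 0.31) and pericyte markers higher in 3 of 4 (0.23 ± 0.40). By gene, of 4 brown adipocyte markers tested, 1 had a fitted change above 0 and 3 below 0 (median -0.31). Mean Fabp4 was 19.3 CPM in control and 41.5 CPM with BAT, whereas Dio2 was 25.9 and 22.5 CPM. Ucp1 reached at most 0.436 CPM in a BAT library. In control muscle of day 7 it was at 0 CPM in satellite cells and reached 13 CPM in a FAP library. Macrophage markers varied (0.36 ± 0.77). The part of these transcripts in the lower sarcomeric levels was not tested.

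On day 3 the same comparison gave small values. Of 15631 genes, 0% were called by edgeR (472 at an unadjusted p under 0.05, and 0 with DESeq2), and the 6 sarcomeric genes tested had log2 changes of -0.17 ± 0.17 for Myh3, -0.03 ± 0.20 for Myh1, 0.38 ± 0.64 for Myh8, -0.21 ± 0.18 for Myl1, -0.16 ± 0.18 for Mylpf and 0.08 ± 0.20 for Mybpc1. Subtracting the day 3 from the day 7 BAT effect gave -0.87 ± 0.33 for Myh1, -0.56 ± 0.35 for Myh3, -0.42 ± 0.24 for Myl1, -0.47 ± 0.24 for Mylpf, -0.24 ± 0.23 for Mybpc1 and -1.07 ± 0.74 for Myh8. It was -1.65 ± 0.48 for Myh4, -1.65 ± 0.63 for Mybpc2 and 0.76 ± 1.38 for Myh2, which passed the filter through day 7. Their day 3 side rests on few reads (41 control and 40 BAT counts for Myh4, 14 and 18 for Mybpc2, 3.11 and 1.03 for Myh2 over the 4 libraries). By edgeR 0% of 17774 genes were called for this difference (910 at an unadjusted p under 0.05, and 7 with DESeq2). Without the 2 mice of the macrophage-rich satellite cell libraries, the day 3 changes were -0.17 for Myh3, 0.18 for Myh1 and -0.17 for Myl1, and the difference between days was -1.72 for Myh4 and -1.35 for Mybpc2.

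Beyond these genes, no gene of the other muscle lists except Ckm was called with BAT on day 7. Ckm went from 644 ± 380 to 317 ± 211 CPM (SD, n = 4; log2 change -1.05 ± 0.11 SE, edgeR adjusted p = 0.0115). Of 14 fibre metabolism genes 13 had a fitted change below 0 (median -0.63), of 22 thin filament and Z disc genes 20 (median -0.38), and of 16 other thick filament genes 15 (median -0.25). The smallest p-values of the thin filament list belonged to skeletal actin, Acta1 (-0.74 ± 0.11, adjusted p = 0.112), and Myoz1 (-0.80 ± 0.12, adjusted p = 0.144). In the thick filament list they belonged to Trim54 (-1.08 ± 0.26, adjusted p = 0.568) and Mybph, a relative of the binding proteins (-0.72 ± 0.19, adjusted p = 0.626).

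The myosins of other cells did not share this direction. Of 9 smooth and non-muscle myosin genes 3 had a fitted change below 0 (median 0.12), with Myl9 at 0.46 ± 0.20 (edgeR adjusted p = 0.666) and Myh9 at -0.23 ± 0.11 (adjusted p = 0.668). Of 13 myogenic regulators 10 had a change below 0, with a median of -0.07. Myf5 was at 0.34 ± 0.12 (adjusted p = 0.627) and Myod1 at -0.38 ± 0.16 (adjusted p = 0.638).

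**Figure D5:**
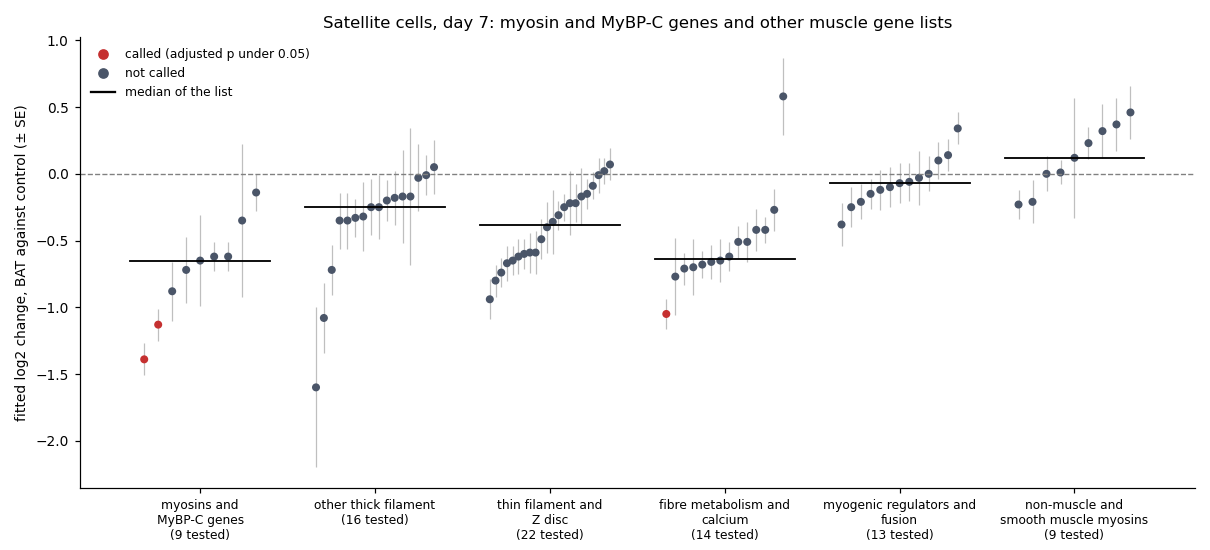
Log2 change of BAT against control in day 7 satellite cells by gene list (9 sarcomeric myosin and binding protein genes, then 16 other thick filament, 22 thin filament and Z disc, 14 fibre metabolism, 13 myogenic regulator and 9 smooth or non-muscle myosin genes). Each point is a gene and the bars mark list medians, which run from -0.65 for the first list to 0.12 for the last.

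In FAPs, the second cell type of these muscles, the light chains, the binding proteins, Myh1, Myh3, Myh4 and Myh8 were all lower on average, and Myh2 and Myh7 were too scarce in both cell types to rank on day 3. On day 3 control FAPs had Myl1 at 0.0379 to 0.223 CPM and Mylpf at 1.19 to 2.45 CPM, and Myh4, Myh8, Mybpc1 and Mybpc2 had 0 counts in the 4 libraries. On day 7 control FAPs had Myl1 at 20.8, 4.48, 12 and 15.7 CPM in replicates 1 to 4, and Mylpf at 10.6, 2.65, 6.44 and 9.09 CPM. Mybpc2 was at 2.69, 0.819, 0.861 and 1.71 CPM, and Myh4 at 1.43, 0.0328, 0.816 and 1.34 CPM. Replicate 2 was the lowest of the 4 mice for each of these genes on day 7.

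Satellite cells exceeded FAPs 181-fold for Myh3, 156-fold for Mybpc1, 71.8-fold for Myh1, 56.4-fold for Myl1, 44.1-fold for Mylpf, 43.7-fold for Myh4, 29.3-fold for Mybpc2 and 24-fold for Myh8 in control muscle of day 7 (pooled counts). FAP replicate 1 held 28 of the 31.3 FAP counts of Myh1 and 4 of the 6 of Myh3. Without that mouse the fold was 603 for Myh1, 44.2 for Mybpc2 and 39.2 for Myh8, and without the mouse of replicate 4 it was 42.4 for Myh1, so that no order of these folds is read. On day 3 Myl1 was 580.3-fold and Mylpf 71.4-fold higher in satellite cells (367-fold and 41.4-fold without the mouse of FAP replicate 3), and Mybpc1 at least 119-fold, Myh8 at least 14.6-fold and Myh4 at least 11.7-fold higher, against a floor of 3 counts over the FAP group. In these contrasts 71.7% of 16329 genes were called on day 3 and 45.1% of 16969 on day 7 (35.8% and 22.5% higher, 35.9% and 22.6% lower in satellite cells), and the sarcomeric genes called higher were 5 of 5 and 9 of 9 tested. Nothing is read from these counts either, since most of the genes passed the filter on low counts through the satellite cells, where they are high: in FAPs alone 1 of the 10 passed it on day 3 and 5 on day 7. The FAP level was also read as a share of the satellite cell level of the same control mouse on day 7. Medians over the mice, with the highest mouse in brackets, were 0.25% for Myh1 (9.21%) and 0.309% for Myh3 (4.06%). They were 2.72% for Myh8 (10.9%), 0.606% for Mybpc1 (0.988%), 1.9% for Myl1 (3.73%) and 2.36% for Mylpf (4.39%). Mybpc2 had 2.91% (10.4%), Myh4 3.06% (7.48%) and Pax7 0% (0.831%). Whether these reads come from FAPs or from other cells in the gate was not tested.

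With BAT, FAPs of day 7 had Mybpc2 at 34.4 to 65.9% of control, lower in 4 of 4 mice (log2 change -1.03 ± 0.36 SE), while Myl1 changed by -0.38 ± 0.37, Mylpf by -0.29 ± 0.31, Myh4 by -0.23 ± 0.75 and Mybpc1 by -0.67 ± 0.70. Of 16021 genes 0% were called in this comparison by edgeR (783 at an unadjusted p under 0.05, and 23 with DESeq2). The BAT effect in satellite cells minus that in FAPs was -0.07 ± 0.26 for Mybpc2, 0.53 ± 0.56 for Mybpc1, -0.26 ± 0.41 for Myl1, -0.34 ± 0.32 for Mylpf and -1.14 ± 0.56 for Myh4. For Myh3 it was -2.66 ± 0.84, but the FAP side of that value rests on 0 to 4 counts per control and 2 to 10 counts per BAT library, and Myh3, like Myh1, Myh2 and Myh8, was too low to be tested in FAPs alone. In this comparison 0% of 18033 genes were called by edgeR (1205 at an unadjusted p under 0.05, and 7 with DESeq2). On day 3, Mylpf was the sole gene of the set tested in FAPs (0.42 ± 0.51), where 0.0188% of 15948 genes were called, 3 in all.

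The genes most like Myh4 across the 16 satellite cell libraries, by Pearson r of log2(CPM + 1) among 14447 genes, were Asb12 (0.997), Fsd2 (0.993), Mybpc2 (0.992), Cox8b (0.989) and Actn2 (0.987). These libraries share the day difference, which raises r for every gene that differs between days. Over the 8 day 7 libraries the closest were Mybpc2 (0.995), Asb12 (0.987), Xirp2 (0.974), Tnnt3 (0.973) and the Myl1 pseudogene Mylf-ps (0.971). There Myh4 had r = 0.963 with Myl1, 0.958 with Mylpf and 0.944 with Myh1, but 0.659 with Myh8, 0.271 with Myh3 and 0.063 with Mybpc1. Each mouse gives 2 of these libraries.

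For Myh3 the closest genes across the 16 libraries were Lrrc28 (0.932), Synpo2l (0.928), Tnnc1 (0.926), Lmod3 (0.921) and Srl (0.920). Over the 8 day 7 libraries they were Nfyc (0.966), Iba57 (0.944), A130051J06Rik (0.932), Synpo2l (0.921) and Lmod3 (0.908). Synpo2l and Lmod3 were in both sets. Myh7 had a mean under 1 CPM and was left out of this description.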

How the data were processed

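Per gene and library the authors deposited expected counts, 1 table for each day, not normalized (column totals differ, and 71.8% of values above 0 are whole). DRAGEN and the mm10 build are named per the submitters' processing notes, with roles and versions not given in the sources used here. RNA from sorted cells was made into cDNA with a low-input kit, per the labels' protocols.

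The tables list 55774 entries each, 287 of them repeats of another, which left 55487 genes, and no column lacked a sample. Expected counts were rounded to whole numbers for testing. Genes were tested with the quasi-likelihood F test of edgeR 4.0.16 (R 4.3.3) with TMM scaling, filterByExpr (minimum count 10, minimum total 15) and Benjamini-Hochberg adjustment over all genes, called at an adjusted p under 0.05, with the mouse as a block within a day. Each SE is the absolute log2 change over the square root of F. DESeq2 1.42.0, RLE scaling, no filter, no block and leaving out each mouse or library were the alternatives, and leaving out the 2 day 3 mice whose satellite cell libraries were rich in macrophage transcripts was added after seeing the data, as were the pooled folds without each mouse. Tests were checked on simulated counts. CPM is a gene's expected count over its column total.

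The members and all gene lists were chosen with earlier results of these data known. Of each list, up to 4 genes were named by the largest change among those called, or up to 2 by the smallest p. Mouse codes in the labels pair BAT and control libraries. 4 day 3 libraries carry no code (satellite cell replicate 3 and FAP replicate 4) and were taken to be from the same mouse, an inference. Replicate 4 names the library without a number. Deviations of paired libraries correlated at a mean of 0.365 (satellite cells day 7), -0.0326 (satellite cells day 3), 0.519 (FAPs day 7) and 0.145 (FAPs day 3). Where different mice are compared (day 7 against day 3) no block was used.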

Additional observations from a re-analysis of the deposited data

Results flagged for a closer look

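In 34 sets of 4 libraries (a gene in a group, mean of at least 1 CPM), 3 had a library far from the others by Dixon's criterion, which chance alone meets in about 1 in 20 sets. Myh3 in BAT satellite cells of day 7 was highest in replicate 3, at 12.4 CPM against 4.1 to 4.92 CPM in the other mice, and the control library of that mouse was also the highest of its group (14.9 CPM). In BAT FAPs of day 3, replicate 1 had Myl1 at 4.29 CPM and Mylpf at 7.92 CPM, while the other libraries had at most 0.218 and 2.15 CPM. That FAP library also had Myh3 at 1.53 CPM, the satellite cell markers Itga7 at 37.3 CPM and Cdh15 at 30.7 CPM, and a summed macrophage marker level of 4149 CPM. The part of these transcripts in its light chain levels was not tested.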

How the results depend on the processing

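Over all comparisons and settings run, the log2 changes of single sarcomeric genes kept their side of the threshold in 641 cases, became called in 8 and lost a call in 11. Of the called changes 0 reversed, but some changes that were not called took the other sign. Myh4 with BAT in FAPs of day 7, at -0.23, ran from -0.88 to 0.41. The count called in day 7 satellite cells with BAT was 2, and it rose to 5 with no filter on low counts and to 5 with DESeq2, and went to 0 with no replicate block. Leaving out each mouse gave 0 to 2. Over all genes this comparison called 3, against 206 with no filter, 40 with DESeq2 and 0 without the block. For the BAT effect in satellite cells minus FAPs on day 7, no filter gave 1 sarcomeric gene (Myh3) and 183 genes in all, against 0. The cause was not tested. Developmental and adult fast shares moved by less than 1 SD on plain CPM or coding length, and the slow share was not checked in this way. Depth limits the scarce genes: over 4 satellite cell libraries Myh7 had at most 35.9 counts in any group, and on day 3 Myh8 had at most 51.1, Mybpc2 18 and Myh2 3.11.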
